A study of Mus musculus with 8 samples.

Results

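Plasmacytoid dendritic cells (pDC) were taken from single-cell RNA sequencing of CD45.2+ cells sorted from mouse brain, and 522 of 46314 cells met the definition, which is 1.13% (95% exact binomial interval 1.03 to 1.23%). A cell was counted as a pDC when it held at least 1 unique molecular identifier (UMI, 1 captured transcript) of each of Siglech, Cox6a2 and Bst2 and none of Cd209a, C1qa and Cd3e. The pDC were thus chosen by measured values, and the levels of these 6 genes are given as a description only. Cells were barcodes with at least 500 UMIs, 200 genes, at most 5% mitochondrial UMIs and 1 dominant hashtag, an antibody-borne tag that marks the sample a cell came from.

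The series held 8 libraries, 1 for each of 2 genotypes under 4 conditions, all from mice labelled as 16 weeks old and perfused with PBS before the brain was taken. WT mice were C57BL/6J, and APPNL-G-F mice carry a knocked-in App gene with a humanized amyloid-β sequence and the Swedish, Arctic and Iberian mutations, so the changed gene is under its own promoter in every cell type. Control mice drank water, acute colitis mice drank 2% dextran sulfate sodium (DSS) for 1 week, and chronic colitis mice went through 3 cycles of 2% DSS and water for 5 days each. Food allergy mice were sensitized to ovalbumin with alum and then given ovalbumin by mouth. An antibody given by vein before perfusion marked blood cells, a mark that the counts lack, so pDC of the vessels and of the tissue cannot be told apart here. Gene UMIs per library, empty droplets included, came to between 26988646 and 56307389. Each library pooled samples under up to 4 hashtags, and 28 hashtag groups of at least 100 cells (13 WT and 15 APPNL-G-F) gave the spread of cell shares. The labels do not tie a hashtag to a mouse, so p-values over hashtag groups measure the spread between these samples, which share a droplet run within a library. The study names fewer mice for APPNL-G-F chronic colitis than that library holds hashtag groups, so some groups may share an animal, and p-values over hashtag groups are then too small.

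pDC are the innate cells best known for secreting large amounts of type I interferon. They sense viral RNA and DNA in endosomes through TLR7 and TLR9, which need the chaperone UNC93B1 and the adaptor MyD88, and their identity depends on the E protein TCF4, which binds E-box sequences. Outside infection they are small, round, plasma cell-like cells that present antigen poorly compared with conventional dendritic cells, and in the brain they are found mainly at its borders.

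Siglech (sialic acid-binding lectin H, chr7:55768178-55778925, plus strand, mm10), Cox6a2 (an isoform of a respiratory-chain subunit otherwise known from heart and skeletal muscle, chr7:128205435-128206387, minus strand) and Bst2 (tetherin, an interferon-inducible protein that holds virions at the cell surface, chr8:71534255-71537456, minus strand) defined the cells. The 250 bases before the start of Siglech and Bst2 are shown because these genes set who was counted. They are from RefSeq on GRCm38.p6, 5′ to 3′ on the gene's strand, at chr7:55767934-55768183 (plus) and chr8:71537473-71537722 (minus). They end at RefSeq's start, which lies a few bases inside the Siglech gene given above and a few bases outside the Bst2 gene. Capitals mark the E-box letters CACCTG (read as CAGGTG on the other strand) or CAGCTG, and GAAA followed after any 2 bases by GAAA, as in the interferon-response element.
Siglech: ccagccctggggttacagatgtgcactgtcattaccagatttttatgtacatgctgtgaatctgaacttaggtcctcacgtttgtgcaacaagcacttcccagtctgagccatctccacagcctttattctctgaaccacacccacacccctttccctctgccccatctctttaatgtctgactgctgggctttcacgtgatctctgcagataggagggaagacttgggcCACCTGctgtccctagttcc
Bst2: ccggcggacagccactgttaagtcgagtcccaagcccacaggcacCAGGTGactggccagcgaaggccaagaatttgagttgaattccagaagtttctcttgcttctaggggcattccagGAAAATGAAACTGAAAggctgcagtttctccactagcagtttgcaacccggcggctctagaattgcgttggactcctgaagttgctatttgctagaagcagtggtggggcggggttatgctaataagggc
Siglech held 1 E-box starting 20 bases before the start. Bst2 held 1 E-box starting 205 bases before it, and a pair of overlapping matches to the GAAA repeat at 130 and 124 bases before it. On either strand, an E-box of any of the 3 kinds was found in 27.7% of 32851 promoters of the same length and the GAAA repeat in 2.98%, and a match describes letters only. Of 15 genes looked up, 10 had a RefSeq promoter, and Klk1 and Mctp2, described below, also held an E-box.

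The median pDC held 5270 UMIs, against 3267 in all cells, and within it the medians were 8 UMIs of Siglech, 11 of Cox6a2 and 21 of Bst2. At the edge of the definition, 41 pDC had a single Siglech UMI, 35 a single Cox6a2 UMI and 10 a single Bst2 UMI. T cells, which should lack the first 2, held a Siglech UMI in 0.448% and a Cox6a2 UMI in 0.470% of cells, while Bst2 was found in 37.2% of them. Just outside, 364 cells lacked only Siglech, 143 only Cox6a2 and 4 only Bst2. Ccr9, a chemokine receptor of pDC, was found in 2.20% of the cells that lacked only Siglech, against 59.6% of pDC, while the transcription factor Tcf4 was found in 55.2% of these cells and in 55.9% of those lacking only Cox6a2, and Irf8, another factor high in pDC, in 67.0% and 93.0%. Klra17, a receptor of the Ly49 family, was found in 8.39% of those lacking only Cox6a2 against 28.7% of pDC.

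Excluding Cd209a removed more cells than the other exclusions did: 308 cells failed on Cd209a alone, 19 on Cd3e alone and 12 on C1qa alone. The 308 cells held a median of 2.5 Cd209a UMIs and a median of 5240.5 UMIs in all. Ly6d, a gene described below, was found in 91.6% of them and 92.9% of pDC. H2-Aa, an MHC class II chain, was found in 77.6% of them against 50.2% of pDC, Ccr9 in 73.4% against 59.6%, and Mki67, a proliferation marker, in 8.44% against 23.0%. The definition thus left out a sizeable set of cells with the other pDC genes, more of which held MHC class II and fewer of which held Mki67. These differences were not tested.

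Most listed pDC markers that were not part of the definition followed the label. Of 16 such markers, 11 were called higher than in type 2 dendritic cells and 5 were not called, by the test described below. Against type 1 dendritic cells 12 were higher and 1, Irf7, was lower, and against B cells 12 were higher and 1, Spib, was lower. Tcf4 was found in 496 of the 522 pDC and 1.76% of T cells, Irf8 in 98.3% and 5.43%, Runx2 in 85.8% and 10.0%, Smim5 in 75.3% and 0.504%, and Ly6d in 92.9% of pDC. The median T cell held 3073 UMIs, so depth differs too, and the shares given here were not matched for depth. In every library Tcf4, the E protein above, stood between 473 and 770 CPM (UMIs of the gene scaled to a total of 1000000 over the pDC of a library), and all 8 values were above the highest value in type 2 dendritic cells, 195 CPM. Ptprc, which encodes CD45, was found in 80.3% of pDC.

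UMIs from a list of markers of other lineages were common. Most pDC with such a gene held at most 2 of its UMIs, except for the B cell genes Cd79a and Ms4a1. The neutrophil genes S100a8 and S100a9 were each above 10 UMIs in 15 pDC, with up to 1986 and 2105 UMIs in 1 cell. Of the 522 pDC, 289 (55.4%) held at least 1 UMI from this list of 14, led by the neutrophil alarmins S100a9 (26.2% of pDC) and S100a8 (19.0%). Clec9a (17.0%, against 4.58% of all other cells) and Lyz2 (12.6%) came next. Clec9a was listed as a gene of type 1 dendritic cells, but Xcr1 was found in 2 pDC and both together in 0. Clec9a was also called higher in pDC than in B cells. Whether its UMIs came from other cells was not tested, so the 55.4% may count pDC by a gene of their own. Cd79a was found in 22 pDC, 15 of them with more than 2 UMIs, and Ms4a1 in 10, 8 of them with more than 2. Both were found in 9 pDC, the genes that define B cells below. The 5 T cell markers together reached at most 12.1 CPM in any library. Cd3e, 1 of the 5, was fixed at 0 by the definition, which also removes cells mixed with T cells, so this low sum was partly set in advance. The microglial factor Sall1, the collagen Col1a1 and the haemoglobin gene Hba-a2 were at 0. In all, 1278 barcodes were found in more than 1 library, 25 pDC carried a barcode that was a cell of another library, and none was a pDC in both.

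The share of pDC ranged from 0.380% in WT acute colitis (17 of 4479 cells, exact interval 0.221 to 0.607%) to 2.21% in APPNL-G-F acute colitis (139 of 6282, 1.86 to 2.61%). Among WT libraries it was 1.08% in control (73 of 6747), 1.56% in chronic colitis (83 of 5327) and 0.524% in food allergy (24 of 4584). Among APPNL-G-F libraries it was 0.701% in control (47 of 6700), 0.871% in chronic colitis (50 of 5742) and 1.38% in food allergy (89 of 6453). These intervals cover counting error only, and the spread inside a library was far wider. In APPNL-G-F acute colitis a single hashtag group held 133 of the 139 pDC (4.13% of its 3218 cells), while the other 2 stood at 0.0772% and 0.283%. In WT control 1 group stood at 2.77% (57 of 2061 cells) and the others at 0.192%, 0.363% and 0.543%, and in WT chronic colitis 72 of the 83 pDC came from 1 group of 3340 cells. In WT acute colitis the group at 2.78% held 3 pDC of 108 cells. A share does not tell fewer pDC from more of the other cells.

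**Figure D1:**
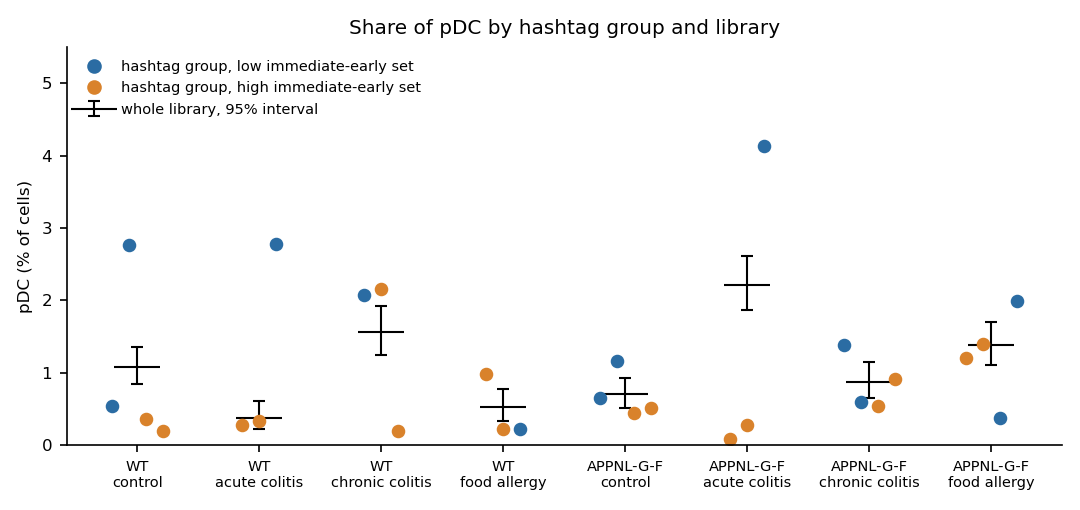
pDC as a percentage of cells in each library, with 1 point per hashtag group of at least 100 cells, coloured by the immediate-early set defined below, and a bar for the share of the whole library with its 95% exact interval. The point at 4.13% in APPNL-G-F acute colitis and the one at 2.77% in WT control stand far above the other groups of their libraries.

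Over hashtag groups, no difference between genotypes or treatments exceeded the spread. The mean share was 1.05 ± 0.997% (SD, n = 15) in APPNL-G-F and 1.01 ± 1.04% (n = 13) in WT, a difference of 0.0386 percentage points (two-sided permutation p = 0.931). Against 0.831 ± 0.832% (n = 8) in control, the mean was 1.31 ± 1.72% (n = 6) in acute colitis (exact permutation p = 0.573), 1.12 ± 0.771% (n = 7) in chronic colitis (exact permutation p = 0.500) and 0.912 ± 0.673% (n = 7) in food allergy (exact permutation p = 0.840). All 4 adjusted p-values were 0.931 (Benjamini-Hochberg over these permutation tests). The 3 treatment comparisons share their controls. The food allergy difference was −0.493 points in WT and 0.545 points in APPNL-G-F, and the test of the difference between genotypes gave an exact permutation p of 0.198 (0.595 adjusted over 3 tests, the others at 0.712).

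The share of pDC was also set beside immediate-early genes. Summed CPM of 10 immediate-early genes such as Fos, Jun and Egr1, which are induced within minutes by stimulation or tissue dissociation, divided the hashtag groups by their T cells into 12 low groups (726 to 1399 CPM) and 16 high groups (3042 to 6734 CPM). pDC made up 1.91% of cells in the low groups (312 of 16300) and 0.700% in the high ones (210 of 30014), with the higher mean share in the low groups in 6 of 8 libraries and not in the food allergy libraries. The pDC themselves stood at 529 CPM for these genes in the low groups and 3897 CPM in the high ones, and higher in the high groups in 8 of 8 libraries. Some of these comparisons rest on few cells. The low groups held 1 pDC in WT food allergy, 4 in WT acute colitis and 8 in WT chronic colitis, and the high groups 6 in APPNL-G-F acute colitis. Other cells differed between these sets too: type 1 dendritic cells numbered 0 to 8 in a low group and 21 to 120 in a high one, type 2 dendritic cells 0 to 22 and 29 to 102, and cells with UMIs of both Col1a1 and Col1a2, collagen genes of fibroblasts, 0 to 1 and 1 to 47. The groups were divided by the data, so no test was made, and the part of the immediate-early signal or of these other cells in the pDC shares was not tested.

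The levels of the defining genes varied moderately between libraries. Siglech lay between 945 CPM (APPNL-G-F chronic colitis) and 2109 CPM (WT acute colitis), Cox6a2 between 1452 and 3249 CPM and Bst2 between 2413 and 3660 CPM. Klk1 was spread wider, from 166 CPM in WT food allergy to 652 CPM in WT acute colitis. WT acute colitis, with 17 pDC, had the highest Siglech, Klk1, Ccr9, H2-Aa and Cd74 of the 8 libraries.

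To place the cells, UMIs of pDC were summed per library and compared with 902 type 2 dendritic cells (Cd209a+), 931 type 1 dendritic cells (Xcr1+ Clec9a+) and 6873 B cells (Cd79a+ Ms4a1+), all without Cox6a2 UMIs, by edgeR's quasi-likelihood test with the library as a block. A gene was called at a Benjamini-Hochberg adjusted p under 0.05 and a change of at least 2-fold, and the genes of either definition were left out. Against type 2 dendritic cells, 437 of 7111 genes were higher in pDC (6.15%) and 668 lower (9.39%). Against type 1 dendritic cells, 737 of 6609 were higher (11.2%) and 786 lower (11.9%). Against B cells, 765 of 8341 were higher (9.17%) and 768 lower (9.21%). Of 6416 genes tested against both dendritic classes, 324 were higher in pDC and 358 lower in both comparisons, and 21 were called in opposite directions. Gene lists are described below by how many members were called, beside a median log2 fold change over all tested genes of 0.02, 0.02 and −0.02 in the 3 comparisons.

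**Figure D2:**
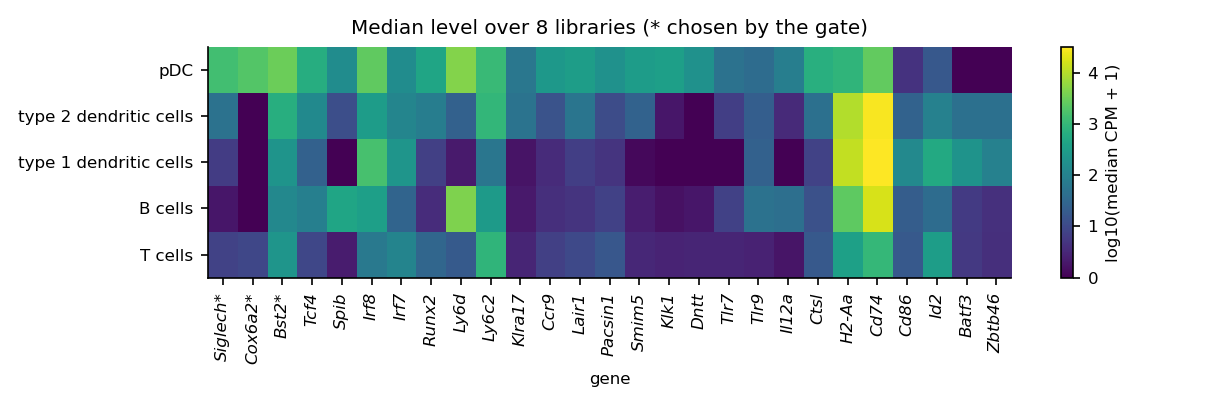
Median level over 8 libraries of 27 genes (columns) in pDC, both dendritic classes, B cells and T cells (rows), as log10 of the median CPM plus 1, with an asterisk on the genes that defined pDC. Cox6a2 is at 0 in both dendritic classes and B cells, which were required to lack it, Ly6d is bright in pDC and B cells, and H2-Aa and Cd74 are brightest in the dendritic classes.

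The genes with the largest rises in pDC over both dendritic classes included Dntt, Iglc3 and Klk1. Dntt, the terminal transferase that adds bases at V(D)J joints, gave 855 UMIs in pDC (93.2 to 416 CPM, median 189), 3 in type 2 and 1 in type 1 dendritic cells, a ratio of 637 over type 2 cells (counting interval 217 to 3097) on the CPM scale. Iglc3, an immunoglobulin lambda constant gene that shares reads with close copies, gave 917, 3 and 1 UMIs, a ratio of 684 over type 2 cells (233 to 3321). Both genes serve the antigen receptors of lymphocytes, and in B cells Dntt gave 31 UMIs and Iglc3 21225. Klk1, tissue kallikrein of a large gene family, gave 1277 UMIs in pDC, 10 in type 2 and 0 in type 1 dendritic cells, which is at least 1186-fold higher than the floor of 3 UMIs over the type 1 cells.

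Ly6d, a surface protein of early B lineage cells, stood between 2622 and 6709 CPM in pDC and between 2.22 and 107 CPM in type 2 dendritic cells, with no overlap (log2 fold change 7.17 ± 0.43 SE, edgeR adjusted p = 3.14e-09). In B cells it stood between 3165 and 5336 CPM, and the difference from pDC did not pass (−0.07 ± 0.14, edgeR adjusted p = 0.730). Mzb1, an endoplasmic reticulum chaperone of antibody-secreting cells, gave 503 UMIs in pDC and 9 in type 2 dendritic cells, and it fell by 2.43 on the log2 scale against B cells. The orphan receptor Gpr25 (409 UMIs in pDC, 7 in type 2 cells), Mctp2 and the semaphorin Sema4b were also among the 12, as were the heparan sulfate sulfotransferase Hs3st1, the thromboxane receptor Tbxa2r, the endocytic adaptor Pacsin1 and the proton channel Hvcn1. Their log2 fold changes over type 2 dendritic cells were 6.38 ± 0.43 for Gpr25, 5.02 ± 0.27 for Mctp2, 4.21 ± 0.24 for Hs3st1 and 4.17 ± 0.29 for Sema4b. For Tbxa2r the change was 4.12 ± 0.21, for Pacsin1 3.72 ± 0.28 and for Hvcn1 3.68 ± 0.17.

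The 6 largest falls over both dendritic classes were in Ckb, Plbd1, Mt1, Slamf7, Naaa and Cd83. The creatine kinase Ckb stood between 0 and 22.7 CPM in pDC, between 360 and 749 CPM in type 2 and between 1270 and 1913 CPM in type 1 dendritic cells (log2 fold changes of −6.15 ± 0.22 and −7.93 ± 0.23). Against type 2 cells, the lysosomal enzymes Plbd1 and Naaa stood at −5.92 ± 0.32 and −4.58 ± 0.28, the metallothionein Mt1 at −5.45 ± 0.44, the receptor Slamf7 at −4.86 ± 0.31 and the maturation marker Cd83 at −4.37 ± 0.44. For each of the 6, every pDC library except 1 for Cd83 stood below every library of type 2 dendritic cells, and in WT chronic colitis Cd83 reached 59.1 CPM against a lowest type 2 value of 58.3 CPM.

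**Figure D3:**
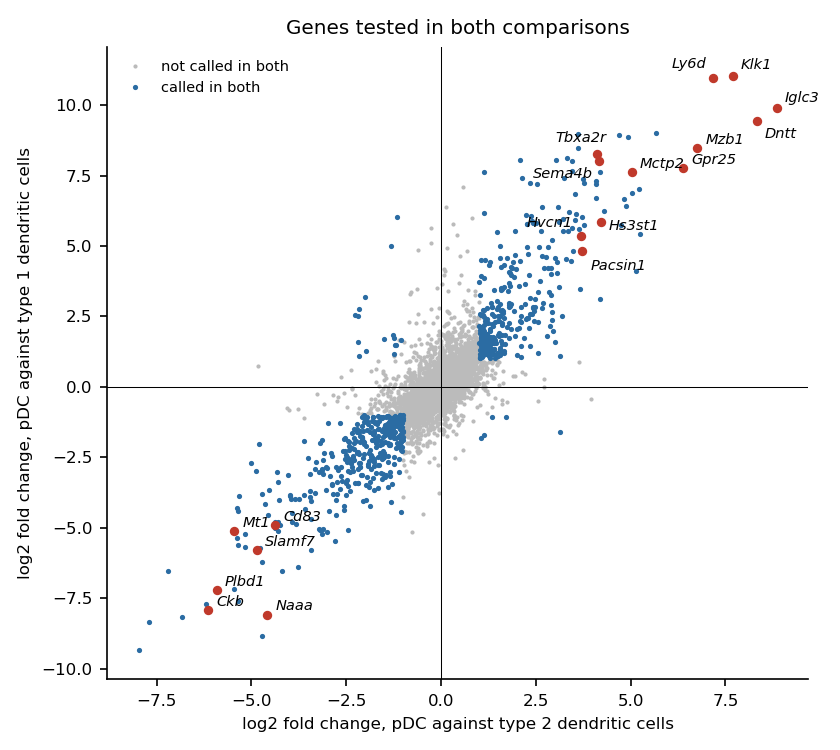
Log2 fold change of 6416 genes in pDC against type 2 dendritic cells (horizontal axis) and type 1 dendritic cells (vertical axis), with genes called in both comparisons in blue, the others in grey and the 18 named rises and falls in red. Positions of genes with 3 or fewer UMIs in a dendritic class, such as Dntt and Iglc3, depend on the prior count of the fit.

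Among 22 transcription factors, Tcf4, Runx2 and Spib were higher than in both dendritic classes, and Id2, Batf3 and Zbtb46 were lower. Against type 2 dendritic cells 7 were higher and 8 lower of 22 tested, and against type 1 cells 9 and 8 of 20. Tcf4 rose over type 2 cells by 1.99 ± 0.15 on the log2 scale (edgeR adjusted p = 4.97e-08), over type 1 cells by 4.18 ± 0.13 and over B cells by 2.55 ± 0.09. Runx2, which promotes the exit of pDC from bone marrow, rose by 2.23 ± 0.12 and 6.12 ± 0.24 over the dendritic classes. The ETS factor Spib lay between 103 and 237 CPM in pDC and between 3.33 and 21.7 CPM in type 2 cells (edgeR adjusted p = 7.15e-09), and fell by 1.65 ± 0.13 against B cells. Irf8, needed by type 1 dendritic cells and high in pDC, rose by 2.72 ± 0.17 over type 2 cells but was within 2-fold of type 1 cells (0.27 ± 0.08).

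Id2, an inhibitor of E proteins, stood at −2.80 ± 0.26 and −5.47 ± 0.21 against the 2 dendritic classes. Batf3 gave 5 UMIs and Zbtb46 gave 6 in all pDC, against medians of 206 and 95.3 CPM in type 1 cells. Irf7, the master regulator of interferon genes, lay between 63.6 CPM (APPNL-G-F acute colitis) and 198 CPM (APPNL-G-F food allergy) in pDC. It was not called against type 2 cells (0.15 ± 0.17, edgeR adjusted p = 0.502) and fell by 1.11 ± 0.23 against type 1 cells (edgeR adjusted p = 0.000585). Against B cells it rose by 2.28 ± 0.13.

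The list of 43 surface and lineage genes held the most pDC calls: 21 higher and 4 lower of 38 tested against type 2 cells (median 1.20), 27 and 2 of 37 against type 1 cells (median 4.12) and 33 and 1 of 41 against B cells (median 3.46). Much of this list was composed of known pDC genes. The gut-homing receptor Ccr9 rose by 3.54 ± 0.25, 5.93 ± 0.22 and 6.44 ± 0.22 over type 2, type 1 and B cells, and ranged from 139 to 559 CPM. Cxcr3, a receptor for interferon-induced chemokines, rose over type 2 cells (3.14 ± 0.22) and fell against type 1 cells (−1.60 ± 0.19), while Ccr2, the monocyte-recruiting receptor, fell against both (−3.10 ± 0.17 and −2.58 ± 0.17). Ly6c2 and Klra17, both members of families with similar copies, were not called against type 2 cells (0.10 ± 0.19 and 0.32 ± 0.27) and rose over type 1 cells by 4.12 ± 0.42 and 5.78 ± 0.42. The lectin Clec10a, a marker of type 2 cells, fell by 1.31 ± 0.20 against them.

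Of the nucleic-acid sensing genes, Tlr7 and the protease gene Ctsl were higher than in all 3 other classes. Tlr7 gave 164 UMIs in pDC, between 18.9 and 76.2 CPM by library, and 1 UMI in all type 1 dendritic cells. It rose by 2.54 ± 0.33 over type 2 cells (edgeR adjusted p = 1.35e-05) and by 2.62 ± 0.23 over B cells. Tlr9, the DNA sensor, was within 2-fold of all 3 classes (0.79 ± 0.20, 0.35 ± 0.21 and −0.31 ± 0.16), as was Unc93b1 (0.42 ± 0.09, 0.02 ± 0.09 and 0.11 ± 0.09). Myd88 fell against both dendritic classes (−1.34 ± 0.18 and −1.22 ± 0.21). The cathepsin Ctsl, an endosomal protease, rose by 3.55 ± 0.21, 6.12 ± 0.21 and 5.43 ± 0.23. In all, 3 were higher and 6 lower of 19 tested against type 2 cells (median 0.02), 4 and 3 of 18 against type 1 cells (median 0.25) and 4 and 3 of 20 against B cells (median −0.21).

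No interferon transcript was seen. The 20 type I and III interferon genes gave 0 UMIs in 522 pDC, which allows a share of up to 0.575% of pDC with a UMI, and 37 UMIs in all cells. More interferon-stimulated genes were lower than higher: 1 was higher and 8 lower of 18 tested against type 2 cells (median −0.87), 0 and 8 of 17 against type 1 cells (−0.96) and 1 and 8 of 18 against B cells (−0.68). Ifitm3, an antiviral membrane protein, fell by 5.01 ± 0.32 against type 2 cells, and Isg15, a ubiquitin-like modifier, fell by 1.63 ± 0.43. Isg15 was uneven between libraries, from 6.46 CPM in APPNL-G-F acute colitis to 103 CPM in WT chronic colitis. Stat2, a transducer of the interferon receptor, rose by 1.10 ± 0.15 over type 2 cells.

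Most genes of antigen presentation were lower in pDC. Of 19 genes tested, 14 were lower in pDC than in type 2 cells and 0 higher (median −2.87), and 14 of 18 were lower than in type 1 cells (median −3.01) and 11 of 19 than in B cells (median −1.69). H2-Aa in pDC was 491, 1771, 603 and 1239 CPM in the control, acute, chronic and food allergy libraries of WT mice, and 851, 884, 566 and 1020 CPM in the APPNL-G-F libraries in the same order. In type 2 cells the lowest library held 4625 CPM, and it fell by 3.58 ± 0.20 in pDC (edgeR adjusted p = 1.68e-09). Ciita, the class II transactivator, fell by 3.82 ± 0.27, and the costimulator Cd86 gave 11 UMIs in all pDC (−3.44 ± 0.35). H2-K1, of MHC class I, was not called against type 2 cells (−0.02 ± 0.10, edgeR adjusted p = 0.901).

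Genes of the secretory pathway and unfolded protein response, which plasma cells raise, were mostly not called: 2 of 32 were higher and 2 lower against type 2 cells (median 0.31), 2 and 1 of 32 against type 1 cells (median 0.19) and 1 and 4 of 35 against B cells (median −0.07). Over all genes, 6.15% were higher and 9.39% lower against type 2 cells, so few calls are not particular to this list. The 35 genes summed to between 8874 and 12013 CPM in pDC libraries. The sums were 6600 to 7378 CPM in type 2 cells, 6444 to 7317 CPM in type 1 cells and 7554 to 10431 CPM in B cells. These sums were not tested. Xbp1, the main regulator, rose by 0.55 ± 0.10, below 2-fold. Dnajc7, a co-chaperone, rose by 1.79 ± 0.13 over type 2 cells and Edem2, which marks misfolded glycoproteins for degradation, by 1.04 ± 0.17. The 4 tested respiratory-chain isoforms other than Cox6a2 were not called anywhere. Cox6a1, the common form, stood between 260 and 421 CPM in pDC (−0.16 ± 0.11 against type 2 cells, edgeR adjusted p = 0.262).

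Among effector genes, Il12a, the p35 subunit shared by IL-12 and IL-35, was the one gene higher than in both dendritic classes. It lay between 59.3 and 133 CPM in pDC and between 1.35 and 10.2 CPM in type 2 cells (4.20 ± 0.30, edgeR adjusted p = 1.94e-08). The chemokine Ccl4 was the most uneven between libraries, at 238, 1838, 657 and 605 CPM in the WT and 391, 2.15, 245 and 446 CPM in the APPNL-G-F libraries, in the same order. It was higher than in B cells (4.48 ± 0.55) and not called against type 2 cells (0.04 ± 0.52). The WT acute colitis value of Ccl4 rests on 17 pDC, and the 5 pDC with the most Ccl4 held 25.1% of its UMIs. In WT acute colitis 13 of 17 pDC were in high immediate-early groups, and in APPNL-G-F acute colitis 133 of 139 were in a low one. The part of these groups in the Ccl4 levels was not tested. Gzmb, Il6 and the partner of Il12a in IL-35, Ebi3, gave 2, 1 and 51 UMIs, and Ebi3 fell by 2.29 ± 0.22 against type 2 cells. Of 8 effector genes tested against type 2 cells, 1 was higher and 3 lower.

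App itself was low in pDC: 12.2, 0, 18.6 and 42.6 CPM in the WT and 8.06, 49.6, 12.6 and 10.1 CPM in the APPNL-G-F libraries, in the order above, against 139 to 218 CPM in type 2 cells (−3.29 ± 0.28, edgeR adjusted p = 1.53e-07). These are 85 UMIs in all, and they do not tell the knocked-in from the WT gene. Of the 11 amyloid and protease genes tested against type 2 cells, 0 were higher and 3 lower (median −0.43), which were App, its homologue Aplp2 and the cysteine protease inhibitor Cst3. Tyrobp, the signalling adaptor that pairs with Siglec-H and with Trem2, rose by 1.47 ± 0.10 over type 1 cells and 3.54 ± 0.18 over B cells.

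**Figure D4:**
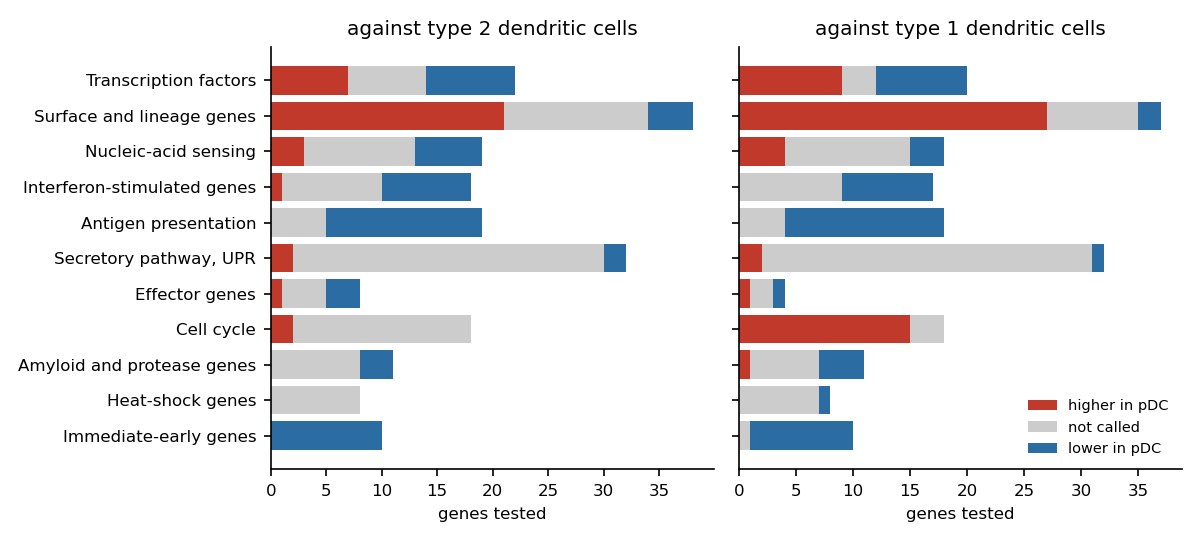
Number of tested genes of each list that were higher in pDC (red), lower (blue) or not called (grey) against type 2 dendritic cells (left) and type 1 dendritic cells (right). Surface and lineage genes are mostly red, antigen presentation and immediate-early genes mostly blue, and of the cell cycle genes 15 of 18 are red on the right against 2 of 18 on the left.

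Part of the pDC held transcripts of the cell cycle. Mki67 was found in 120 pDC (23.0%, against 5.06% of T cells), from 11.8% of 17 cells in WT acute colitis to 32.9% of 73 cells in WT control. When each cell was thinned to 1000 UMIs, which left out 66 T cells and 0 pDC, the share was 8.43% of pDC and 2.06% of T cells. Of 18 cell cycle genes, 15 were higher than in type 1 cells and 17 than in B cells (medians 1.37 and 1.43), and 2, Mcm2 and Stmn1, than in type 2 cells (median 0.30). Mki67 stood at 0.31 ± 0.17 against type 2 cells (edgeR adjusted p = 0.158). All 10 immediate-early genes were lower in pDC than in type 2 cells (median −2.22), 9 of 10 than in type 1 cells and 4 of 10 than in B cells. The classes came from different hashtag groups: 59.8% of pDC, 13.9% of type 2 and 3.44% of type 1 dendritic cells were in the low immediate-early groups, and in APPNL-G-F acute colitis 133 of 139 pDC and 21 of 121 type 2 cells were. Within the low groups, summed CPM of the 10 genes was lower in pDC than in type 2 cells in 5 of 5 libraries with at least 10 cells of each (411 to 579 CPM in pDC and 610.3 to 1882 CPM in type 2 cells). Within the high groups it was lower in 7 of 7 (medians 4267 and 10598 CPM), and lower than in type 1 cells in 7 of 7 (median 7023 CPM). The part of the hashtag groups in the class differences of these genes was not tested further. Of 8 heat-shock genes tested, 0 were called against type 2 cells and B cells, and Hspa8 was lower than in type 1 cells.

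For the conditions, pDC sums of the 8 libraries were fitted with genotype and treatment as additive terms, which leaves 3 residual degrees of freedom and assumes the same treatment effect in both genotypes. Of 6928 genes tested, 0 passed an adjusted p under 0.05 for genotype (0%), acute colitis (0%) or chronic colitis (0%) by edgeR, with 258, 479 and 311 genes at an unadjusted p under 0.05, and DESeq2 also called 0. Food allergy gave 4 genes, all higher (0.0577%), with 366 at an unadjusted p under 0.05, and DESeq2 called 0. None of the genes of the lists above was among them. These counts rest on single libraries: without WT acute colitis, which held 17 pDC, they were 9, 70, 24 and 57 for genotype, acute colitis, chronic colitis and food allergy. Cell cycle genes had a median log2 difference of −0.65 in acute colitis, and immediate-early genes of 1.72 in food allergy, with 0 called of 18 and 9 tested.

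The 4 genes encode products of neutrophils and their precursors: the granule proteins Ngp, Ltf (lactoferrin) and Camp (cathelicidin) and the lipolysis inhibitor G0s2. Ngp gave 0, 1, 333 and 419 UMIs in the control, acute, chronic and food allergy pDC of WT mice and 2, 635, 98 and 727 in the APPNL-G-F libraries (9.19 ± 1.36 in food allergy, edgeR adjusted p = 0.0313). G0s2 gave 1, 0, 25 and 57 UMIs in WT and 0, 29, 2 and 98 in APPNL-G-F (7.35 ± 0.88, edgeR adjusted p = 0.00990). Ltf stood at 7.28 ± 1.08 (edgeR adjusted p = 0.0313) and Camp at 7.93 ± 1.25 (edgeR adjusted p = 0.0448). Control libraries were at or near 0 for all 4, so these fitted values depend on the prior count and are not bounds. Chronic colitis in both genotypes and acute colitis in APPNL-G-F also had such UMIs. Without the WT control library none of these 4 was called (edgeR adjusted p of 0.299 to 0.509), and without the WT food allergy library Ngp, Ltf and Camp were not (edgeR adjusted p of 0.0587 to 0.0933).

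The UMIs sat in very few cells. Over 8 neutrophil genes (these 4 with S100a8, S100a9, Lcn2 and Retnlg, a set chosen after their values were seen), 232 pDC held 28134 UMIs, and 18 pDC with at least 10 such UMIs held 27780 of them, which is 98.7%. By library, the set came to 2.04, 16.9, 8686 and 19751 CPM in WT pDC and 121, 11119, 2032 and 12829 CPM in APPNL-G-F pDC. In food allergy, 1 WT pDC and 4 APPNL-G-F pDC were among the 18. Without them the set stood between 2.04 and 221 CPM in every library. All other cells held between 10654 and 133993 CPM of the same genes.

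**Figure D5:**
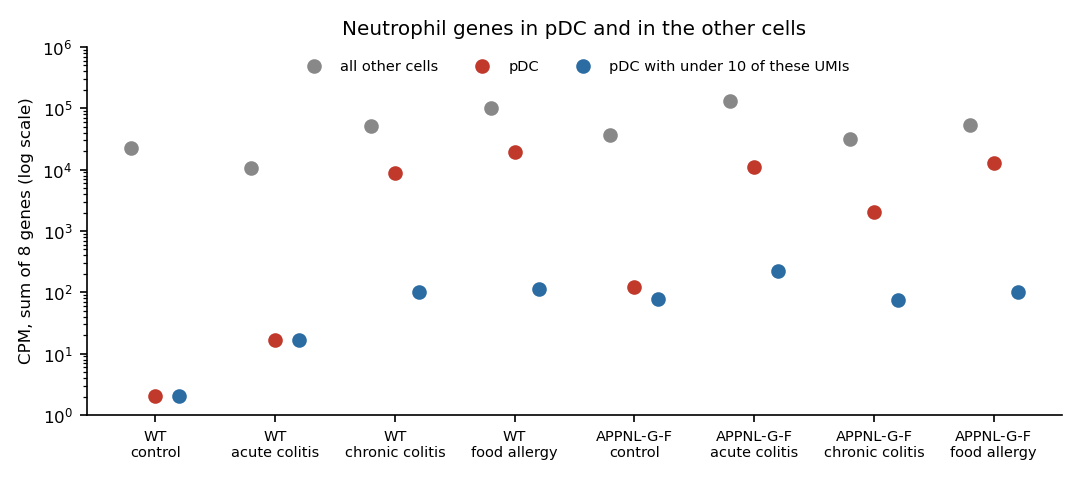
Summed CPM of 8 neutrophil genes, on a log axis, in the pDC of each library (red), in its pDC with under 10 such UMIs (blue) and in all its other cells (grey). Both food allergy, both chronic colitis and the APPNL-G-F acute colitis libraries exceed 2000 CPM with all pDC, and no library exceeds 221 CPM without the 18 cells.

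Variation between pDC of the same library was led by immunoglobulin and neutrophil genes. With cells thinned to 1000 UMIs, over the 7 libraries with at least 20 pDC (WT acute colitis was left out) and genes with a mean of at least 0.05 UMIs, the ratio of variance to mean had a median of 1.01 over 3328 genes, and 62 genes exceeded 2. The 10 highest were Igkv3-10, Ighv1-53, S100a9, S100a8, Igkv1-99, Ngp, Gm42418, Camp, Cxcl2 and Jchain, between 379 and 12.5. A library without UMIs of a gene after thinning was left out of that gene's mean ratio. The ratios of Igkv3-10 (379), Ighv1-53 (86) and Igkv1-99 (40) thus each rest on 1 library. Igkv3-10 had 11383 of its 11384 UMIs in 1 cell, Ighv1-53 all 3028 in 1 cell, and Jchain, the joining chain of secreted antibody, 1437 of 1476 in 1 cell. Cxcl2, a neutrophil-attracting chemokine, was found in 8 pDC. Of the 10, Gm42418 was found in all 522 pDC, and its ratio was 19.8. Among genes of pDC themselves, the ratio was 8.29 for Cd74, the invariant chain of MHC class II, 5.05 for Ccl4, 4.45 for Ly6d and 4.05 for Klk1, which was found in 34.1% of pDC.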

How the data were processed

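RNA of sorted brain CD45.2+ cells was sequenced from 8 libraries of the 10x 5′ chemistry, and the deposited matrices hold counts of UMIs per gene (32285 genes and 4 hashtags) and barcode, which the authors made with Cell Ranger (6.1.2 in the submitters' processing notes, 4 in the matrix headers) on mm10, without normalization or filtering of barcodes. Cells kept had at least 500 UMIs, 200 genes, at most 5% mitochondrial UMIs and a top hashtag of at least 50 counts and 3 times the second. That hashtag rule removes doublets between hashtags only, and no doublet caller was run. The definition of pDC, the comparison classes and the gene lists were chosen with earlier results of these data known, and a single list, the immediate-early genes, is one an earlier analysis of these data used.

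UMIs were summed per library and class and tested with edgeR 4.0.16 in R 4.3.3 (TMM, filterByExpr, glmQLFit, glmQLFTest, Benjamini-Hochberg adjustment over all genes tested), with the library as a block between classes, and with genotype and treatment as terms within pDC. Errors of log2 fold changes are standard errors from these fits. Cell shares were compared over hashtag groups by two-sided permutation tests, exact or with 100000 resamples. Python 3.11.15, numpy 2.4.6, scipy 1.17.1, pandas 2.3.3 and matplotlib 3.10.9 were used, and the fits were tested on simulated data. Alternatives were DESeq2 1.42.0, other normalization and filters, other definitions of pDC, thinning, and leaving out each library. Beyond the lists, the named genes were the 12 largest rises and 6 largest falls over both dendritic classes, by the smaller of the 2 log2 fold changes, with at least 100 CPM in pDC or in both dendritic classes, the genes called for a condition, and the 10 with the highest variance-to-mean ratio. UMIs count captured molecules, and intervals and floors (3 counts) cover counting error only. Coordinates are those of GRCm38. Sting1, Mb21d1, Tasl, Mx1 and Mx2 were not analysed here, and Tmem173 and Cgas stand under those names. Of the genes on the lists, 2 are counted but not reported here by name.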

Additional observations from a re-analysis of the deposited data

Results flagged for a closer look

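Of 42 groups of 4 libraries or 4 or more hashtag groups examined, 7 had a value far from the rest by Dixon's 95% criterion, and chance gives about 1 in 20. For the share of pDC this was the WT control hashtag group at 2.77%, against 0.192 to 0.543% in the others. Among genes, WT acute colitis had 652 CPM of Klk1 (the other WT libraries at 166 to 248 CPM) and 271 CPM of Sema4b (123 to 128 CPM), both from 17 pDC. WT control had 185 CPM of Gpr25 (60.8 to 70.9 CPM), and WT chronic colitis had 59.1 CPM of Cd83 (2.04 to 9.46 CPM). APPNL-G-F acute colitis stood apart in 2 genes, with 127 CPM of Hvcn1 (202 to 209 CPM in the other APPNL-G-F libraries) and 116 CPM of Mt1 (6.70 to 20.2 CPM).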

How the results depend on the processing

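The share of pDC over all libraries was 2.23% with 2 of the 3 positive markers, 0.974% with at least 2 UMIs of each and 0.854% after thinning to 1000 UMIs. It was 0.503% without pDC that carry UMIs of the listed other-lineage markers, Clec9a among them. With Cd209a allowed, an alternative chosen after seeing the data, it was 1.79%. No difference in share between genotypes or treatments passed its test under any alternative run, and several changed sign. APPNL-G-F minus WT was −0.0421 percentage points after thinning, −0.147 without pDC carrying other-lineage UMIs, −0.0646 with Cd209a allowed and −0.206 in the low immediate-early groups, and −0.122 to 0.178 with each library left out, negative without WT food allergy, APPNL-G-F acute colitis (−0.0744) or APPNL-G-F food allergy (−0.0324). Acute colitis minus control was −0.138 in the high groups. Without other-lineage UMIs, chronic colitis stood at −0.106 and food allergy at −0.120. Food allergy was also −0.0240 with Cd209a allowed, −0.419 in the low groups, and −0.358 to 0.410 with each library left out, negative without APPNL-G-F food allergy or APPNL-G-F control (−0.0544).

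Between classes, 2197, 3171 and 3013 genes were called against type 2, type 1 and B cells with no filter on low counts, and the other 42 of 45 alternative counts lay within 1.5 times. The values for the 18 named genes kept their call in 539 of 540 cases, the exception being Naaa against type 2 cells with 2 of 3 markers (−0.89). Dropping the library term, the replicate block of the class fits, gave 1120, 1534 and 1529 genes. No paired analysis was possible between conditions because the labels give no replicate numbers, with 1 library each.

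Within pDC, genes called for genotype, acute colitis, chronic colitis and food allergy were 49, 115, 69 and 102 with no filter on low counts, 5, 0, 2 and 0 with 2 of 3 markers, 2, 0, 0 and 0 without other-lineage UMIs (which removes cells by S100a8, S100a9 and Lyz2 among others and leaves 3535 genes tested), and 4, 10, 4 and 15 with Cd209a allowed. They were 0, 9, 0 and 0 with the immediate-early set as a covariate and 0 throughout by DESeq2, and with each library left out 1 to 15, 0 to 70, 0 to 24 and 4 to 57. The cause was not tested. A left-out library leaves its treatment with 1 sample, which is assumed to vary like the others. WT acute colitis held 17 pDC and WT food allergy 24, which limits the precision of their values.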

Other observations

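pDC held transcripts of genes that are widely used as microglial markers. Tmem119 gave 163 UMIs and was found in 19.7% of pDC and 0.0784% of T cells, at 87.5, 50.8, 45.6 and 37.8 CPM in the control, acute, chronic and food allergy libraries of WT mice and 76.6, 11.9, 60.6 and 41.9 CPM in the APPNL-G-F libraries. All 8 values exceeded every library of type 2 dendritic cells, of which the highest was 6.77 CPM, and it was called higher than in B cells. P2ry12 gave 52 UMIs in pDC (5.05 to 25.1 CPM, with type 2 cells at 1.03 to 8.12 CPM), while Sall1 gave 0 UMIs.

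Sdc1 (syndecan-1), a marker of plasma cells, was found in 21.8% of pDC and rose by 4.09 ± 0.38 over type 2 dendritic cells, and Cd79b, a subunit of the B cell receptor, rose by 1.90 ± 0.17 over them and fell by 5.03 ± 0.15 against B cells. Bace1, the β-secretase, gave 34 UMIs in pDC, with a median of 10.4 CPM against 3.54 CPM in type 2 cells, and had too few counts to be tested. Apoe stood at 713 CPM in APPNL-G-F control against at most 88.3 CPM in the other libraries.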
